A study of Mus musculus with 6 samples.

Results

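Lcn2, Lrg1 and Scgb3a1 are 3 of the 33696 genes counted in 6 single-cell libraries of mouse brain cells. They were chosen because their UMI levels in endothelial cells differed between the study groups in these same libraries, and they were set out to be read in venous and other endothelial cells, so their values between groups and between those subsets are given below as a description, with no test. UMIs are counts of single captured transcripts, read here from the 3′ ends in droplets. The groups were TRPM2 Mg KO with bilirubin, wild type (WT) with bilirubin and WT with vehicle, with 2 libraries each. The labels do not expand "Mg" and do not say which cells lack TRPM2, a calcium-permeable cation channel. Bilirubin is the end product of haem breakdown. No dose, duration, brain region or age was given in the sources used here, and no label says that replicates were separate animals. P-values therefore reflect how far these libraries vary, and that variation may be technical.

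All 3 genes encode secreted proteins. Lcn2 encodes lipocalin 2, an acute-phase protein that binds bacterial siderophores and so withholds iron; neutrophils store it in granules, and activated endothelium and glia can make it during inflammation. Lrg1 encodes leucine-rich alpha-2-glycoprotein, an acute-phase protein of liver and neutrophils that modulates TGF-beta signalling in endothelial cells. Scgb3a1 encodes a secretoglobin best known from airway epithelium. In the brain, inflammatory mediators reach endothelial receptors from blood, and post-capillary venules are the main site of leukocyte adhesion; IL-1, TNF and IL-6 family signals act there through NF-kB, C/EBP and STAT factors.

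The bases upstream of each gene are shown because those factors are the textbook regulators of acute-phase genes. They are RefSeq sequences of build GRCm38.p6, 5′ to 3′ on the gene's own strand, starting 250 bases before the annotated start and leaving off bases that the GENCODE M21 annotation places in a UTR. Capitals mark matches to the motifs named below. The Lcn2 stretch is chr2:32387798-32387989 on the minus strand, the Lrg1 stretch chr17:56122002-56122196 on the minus strand, and the Scgb3a1 stretch chr11:49663345-49663594 on the plus strand.
Lcn2: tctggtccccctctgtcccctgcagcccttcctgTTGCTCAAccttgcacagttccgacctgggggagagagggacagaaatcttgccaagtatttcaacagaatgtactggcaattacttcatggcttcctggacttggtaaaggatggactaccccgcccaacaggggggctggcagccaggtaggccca
Lrg1: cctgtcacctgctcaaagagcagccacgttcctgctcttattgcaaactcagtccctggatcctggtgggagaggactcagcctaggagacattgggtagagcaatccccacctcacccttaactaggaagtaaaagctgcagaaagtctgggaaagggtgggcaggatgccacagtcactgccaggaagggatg
Scgb3a1: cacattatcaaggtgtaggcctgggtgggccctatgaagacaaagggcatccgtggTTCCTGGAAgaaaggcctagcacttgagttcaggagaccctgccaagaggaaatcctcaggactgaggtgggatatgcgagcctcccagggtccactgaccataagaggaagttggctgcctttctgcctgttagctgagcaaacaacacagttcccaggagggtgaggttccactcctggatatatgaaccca

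The motifs searched on both strands of the 250 bases were GGGANNNNCC for NF-kB, TTGCNNAA for C/EBP and TTCNNNGAA for STAT. Lcn2 held 1 C/EBP match, TTGCTCAA, at 216 to 209 bases before the start. Scgb3a1 held 1 STAT match, TTCCTGGAA, at 194 to 186 bases before the start. Lrg1 held none of the 3 motifs, and none of the 3 genes held the NF-kB letters. Of 32851 promoter windows of the same length, 9.56% held the C/EBP letters, 7.02% the STAT letters and 17.6% the NF-kB letters, so such matches are common. A match is a description of the letters and not a binding site.

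Each library contained from 4137 to 24309 barcodes, with 24165563 to 63402551 UMIs in all. Barcodes passing the cell filters were placed in 1 of 16 classes by fixed marker lists, and 37.6 to 69.6% of them met no class. Pairs of libraries shared 12 to 144 barcodes. Median mitochondrial shares were 5.67% and 3.81% in TRPM2 Mg KO bilirubin, 7.21% and 0.657% in WT bilirubin, and 1.07% and 0.854% in WT vehicle, so this measure differed within and between groups. Scrublet called 12.4% and 3.73% of cells as doublets in TRPM2 Mg KO bilirubin, 44.8% and 6.98% in WT bilirubin, and 6.21% and 19.5% in WT vehicle. In TRPM2 Mg KO bilirubin replicate 2 the expected rate set the threshold, and in the other libraries Scrublet's automatic threshold did. Removal of doublets was therefore not alike across libraries. Trpm2 had 6.60 and 4.59 CPM (UMIs scaled to the same total) in the TRPM2 Mg KO bilirubin libraries, 5.12 and 8.16 in WT bilirubin and 11.8 and 6.42 in WT vehicle. Its ranges overlapped, and a 3′ count outside the deleted part, whose position is not given, does not check the label.

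Endothelial-like cells were defined by at least 3 of 12 endothelial markers such as Cldn5, Pecam1 and Flt1. They numbered 1239 and 271 in TRPM2 Mg KO bilirubin, 1166 and 136 in WT bilirubin, and 239 and 297 in WT vehicle. All 12 markers were detected in each library, and their summed level was 8767 to 12895 CPM in TRPM2 Mg KO bilirubin, 12492 to 14319 in WT bilirubin and 7215 to 7292 in WT vehicle. Median UMIs per endothelial-like cell were 3008 and 2163, 2333.5 and 1736, and 1183 and 1644 in the same order of groups. Cells of vehicle libraries were thus the shallowest. Their marker sum was also the lowest, and its part in the folds over vehicle given below was not tested.

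In endothelial-like cells, Lcn2, Lrg1 and Scgb3a1 stood highest in both WT bilirubin libraries, lower in TRPM2 Mg KO bilirubin and, apart from Lrg1, lowest in WT vehicle. Lcn2 had 129 and 53 UMIs in the TRPM2 Mg KO bilirubin libraries, 673 and 57 in WT bilirubin, and 4 and 6 in WT vehicle. As CPM of the class this was 31.6 and 71.1 in TRPM2 Mg KO bilirubin, 218 and 222 in WT bilirubin, and 13.3 and 10.9 in WT vehicle. The 3 groups did not overlap for Lcn2, and its WT bilirubin libraries lay close together. Lcn2 was chosen for such differences, and how many other genes kept the 3 groups apart was not counted. The fitted log2 fold change of Lcn2 was 4.06 (SE 0.59) for WT bilirubin over WT vehicle, -2.09 (SE 0.37) for TRPM2 Mg KO bilirubin over WT bilirubin, and 1.97 (SE 0.60) for TRPM2 Mg KO bilirubin over WT vehicle, with 2 libraries per group.

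Lrg1 was scarcer and rested on few UMIs outside WT bilirubin. It had 9 and 21 UMIs (2.21 and 28.2 CPM) in TRPM2 Mg KO bilirubin, 205 and 20 UMIs (66.4 and 78.1 CPM) in WT bilirubin, and 1 UMI in each WT vehicle library (3.31 and 1.82 CPM). TRPM2 Mg KO bilirubin replicate 1 lay within the vehicle range and replicate 2 above it, so only WT bilirubin stood clear of the other groups. The log2 fold change of Lrg1 was 4.71 (SE 1.56) for WT bilirubin over WT vehicle and -2.85 (SE 0.60) for TRPM2 Mg KO bilirubin over WT bilirubin. It was 1.86 (SE 1.59) for TRPM2 Mg KO bilirubin over WT vehicle, and -0.22 without TRPM2 Mg KO bilirubin replicate 2.

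Scgb3a1 had 166 and 45 UMIs (40.7 and 60.4 CPM) in TRPM2 Mg KO bilirubin, 1077 and 227 UMIs (349 and 886 CPM) in WT bilirubin, and 6 and 9 UMIs (19.9 and 16.4 CPM) in WT vehicle. Its groups did not overlap either, with the same limit as for Lcn2, and WT bilirubin replicate 2 stood far above replicate 1. The log2 fold change of Scgb3a1 was 4.90 (SE 0.56) for WT bilirubin over WT vehicle, -3.49 (SE 0.40) for TRPM2 Mg KO bilirubin over WT bilirubin, and 1.41 (SE 0.57) for TRPM2 Mg KO bilirubin over WT vehicle. All 3 comparisons share libraries, so their values are not independent of each other. The quasi-likelihood test of edgeR with Benjamini-Hochberg adjustment called 0.501% of 8774 genes for WT bilirubin over WT vehicle and 0.0456% for TRPM2 Mg KO bilirubin over WT bilirubin. Between TRPM2 Mg KO bilirubin and WT vehicle edgeR called 0 genes (0%), with 991 at an unadjusted p under 0.05, and DESeq2 called 1.

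Shares of cells with a UMI followed the same order. Lcn2 was seen in 6.30% and 7.75% of endothelial-like cells in TRPM2 Mg KO bilirubin (exact 95% intervals 5.01 to 7.79 and 4.86 to 11.6), in 20.5% and 11.03% in WT bilirubin (18.2 to 22.9 and 6.31 to 17.5), and in 1.67% and 1.35% in WT vehicle (0.46 to 4.23 and 0.37 to 3.41). Intervals cover counting error only. After thinning each cell to 1000 UMIs, which left out 46 to 106 shallower cells per library, the Lcn2 shares averaged 3.21% ± 0.919 in TRPM2 Mg KO bilirubin, 11.7% ± 1.93 in WT bilirubin and 1.40% ± 0.192 in WT vehicle (SD, n = 2 each). Thinned Lrg1 shares averaged 0.923% ± 1.03 in TRPM2 Mg KO bilirubin, 5.07% ± 0.212 in WT bilirubin and 0.196% ± 0.121 in WT vehicle. Thinned Scgb3a1 shares averaged 3.61% ± 0.326 in TRPM2 Mg KO bilirubin, 27.3% ± 12.1 in WT bilirubin and 1.904% ± 0.243 in WT vehicle.

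A UMI of Ackr1, Vwf, Slc38a5 or Nr2f2, genes typical of veins, divided the endothelial-like cells into venous-gate and other cells. Most venous-gate cells also had a UMI of a gene of the arterial list, as given below, so the gate and that list do not separate the zones cleanly. The venous gate held 464 and 99 cells in TRPM2 Mg KO bilirubin, 565 and 54 in WT bilirubin, and 37 and 67 in WT vehicle. Its share of endothelial-like cells was 37.0% ± 0.649 in TRPM2 Mg KO bilirubin, 44.1% ± 6.19 in WT bilirubin and 19.0% ± 5.005 in WT vehicle (SD, n = 2 each). In exact two-sided permutation tests each pair of groups gave p = 0.333, the smallest p that 2 against 2 libraries allow. Deeper cells reach a gate UMI more easily, and vehicle cells were the shallowest. With the gate read after thinning, shares were 19.1% ± 3.38, 31.7% ± 5.40 and 12.4% ± 2.77 in the same order of groups. Thinning also left out the shallower cells. It moved TRPM2 Mg KO bilirubin minus WT vehicle from 18.0 to 6.69 percentage points. TRPM2 Mg KO bilirubin minus WT bilirubin moved from -7.09 to -12.7 points, and WT bilirubin minus WT vehicle from 25.1 to 19.3. Venous-gate cells were deeper, with median UMIs of 3711 and 2971 against 2378 and 1774 for other endothelial-like cells in TRPM2 Mg KO bilirubin, 2898 and 2271.5 against 1708 and 1259 in WT bilirubin, and 1282 and 1753 against 1161 and 1634 in WT vehicle.

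Lcn2 CPM was higher in the venous gate than in other endothelial-like cells in 6 of 6 libraries, on few UMIs in WT vehicle. Its venous-gate CPM was 51.0 and 126 against 14.0 and 8.63 in other endothelial-like cells of TRPM2 Mg KO bilirubin. In WT bilirubin it was 325 and 401 against 71.4 and 39.5, and in WT vehicle 20.3 and 34.1 against 11.9 and 2.49. The vehicle values came from 1 and 5 UMIs in the gate against 3 and 1 in other cells. Most Lcn2 UMIs lay in the gate in every bilirubin library, 99 of 129 and 50 of 53 in TRPM2 Mg KO bilirubin, and 580 of 673 and 52 of 57 in WT bilirubin. Within libraries, the log2 fold change of venous-gate over other cells was 2.26 (SE 0.16, fitted in edgeR with library as a block). Over all genes, edgeR's quasi-likelihood test of this contrast called 222 of 5468 genes, or 4.06%, with 88 (1.61%) higher and 134 (2.45%) lower in the venous gate.

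Scgb3a1 was higher in the venous gate too, but it reached well beyond it. Its CPM was 51.5 and 75.4 in the venous gate against 30.9 and 43.1 in other endothelial-like cells of TRPM2 Mg KO bilirubin. In WT bilirubin it was 468 and 1257 in the venous gate against 187 and 506 in other cells. In WT vehicle it was 20.3 and 0 in the venous gate, from 1 and 0 UMIs, against 19.8 and 22.4 in other cells, so the direction held in 5 of 6 libraries. The log2 fold change was 1.13 (SE 0.12); it was 0.81 with DESeq2 and 0.96 in edgeR without the library block.

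Lrg1 resembled Lcn2 in its venous placement. It had 7 and 17 UMIs (3.60 and 42.7 CPM) in the venous gate against 2 and 4 (0.94 and 11.5 CPM) in other cells of TRPM2 Mg KO bilirubin. In WT bilirubin it had 184 and 20 UMIs (103 and 154 CPM) in the venous gate against 21 and 0 (16.1 and 0 CPM) in other cells, and in WT vehicle 1 and 0 against 0 and 1. The direction held in 5 of 6 libraries. The filter on low counts removed Lrg1 from the fit; without that filter its log2 fold change of venous-gate over other cells was 2.67 (SE 0.32), and it rests mostly on WT bilirubin, with 184 and 20 of the venous-gate UMIs.

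Neutrophil markers were also counted in both subsets. Their sum came to 51.0 and 70.4 CPM in venous-gate cells against 102 and 101 in other endothelial-like cells of TRPM2 Mg KO bilirubin, 250 and 193 against 285 and 340 in WT bilirubin, and 0 and 27.3 against 47.5 and 94.7 in WT vehicle. The sum was lower in venous-gate cells in 6 of 6 libraries, whereas Lcn2 CPM was higher there in 6 of 6 and Lrg1 CPM in 5 of 6. In WT vehicle these values of Lcn2 and Lrg1 rest on few UMIs. The part of neutrophil RNA in these values was not tested.

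**Figure D1:**
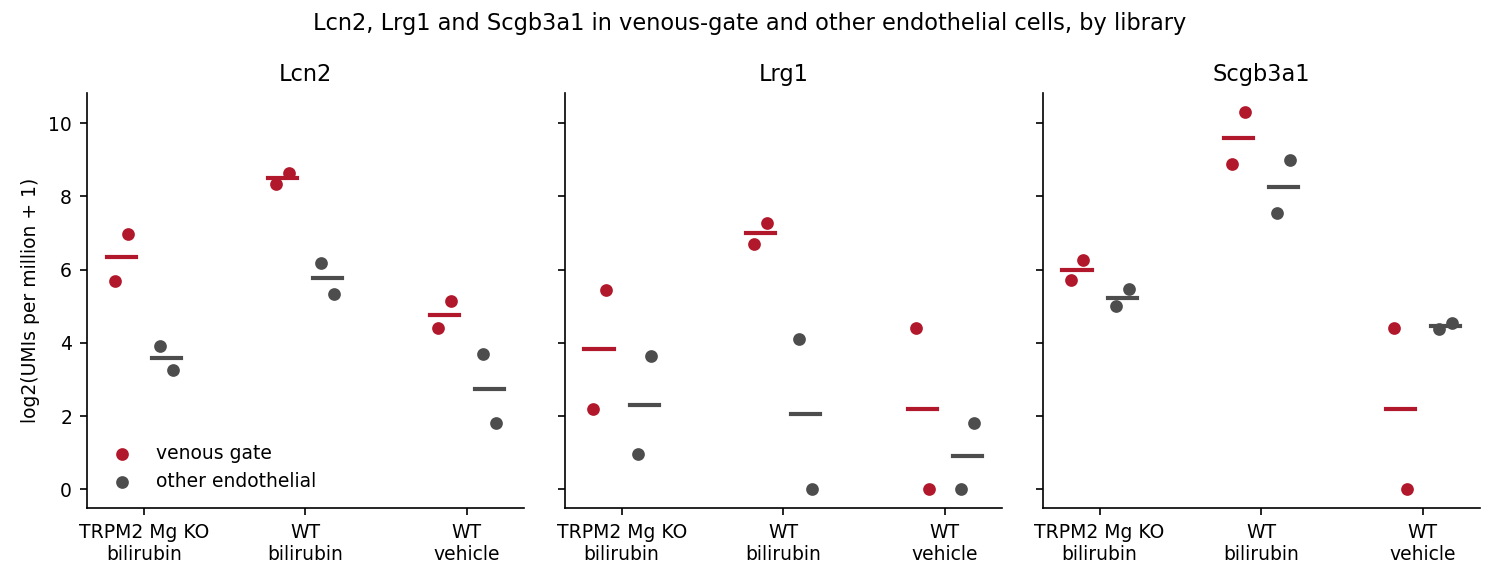
Levels of Lcn2, Lrg1 and Scgb3a1 as log2(CPM + 1) in venous-gate (red) and other (grey) endothelial-like cells; points are libraries and bars are means of the 2 log values. In each of the 4 bilirubin libraries the venous-gate value lies above the other value of the same library for all 3 genes, as for Lcn2 in WT bilirubin at 325 and 401 against 71.4 and 39.5 CPM.

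Levels were higher in cells with 3 or more venous-gate UMIs than in cells with 0 in all 4 bilirubin libraries, for each of the 3 genes. Lcn2 stood at 14.0, 12.6, 34.6 and 143 CPM in cells with 0, 1, 2 and 3 or more such UMIs in TRPM2 Mg KO bilirubin replicate 1, and at 8.63, 80.7, 0 and 219 in replicate 2. In WT bilirubin it stood at 71.4, 126, 158 and 617 CPM in replicate 1 and at 39.5, 209, 171 and 719 in replicate 2. Lrg1 stood in WT bilirubin replicate 1 at 16.1, 43.5, 69.7 and 182 CPM, and in replicate 2, at 0, 92.8, 114 and 233. Scgb3a1 stood at 187, 383, 316 and 635 CPM in WT bilirubin replicate 1 and at 506, 464, 1707 and 1612 in replicate 2, with its step at 2 UMIs in the second library. Deeper cells reach more gate UMIs, and the part of depth was not tested.

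**Figure D2:**
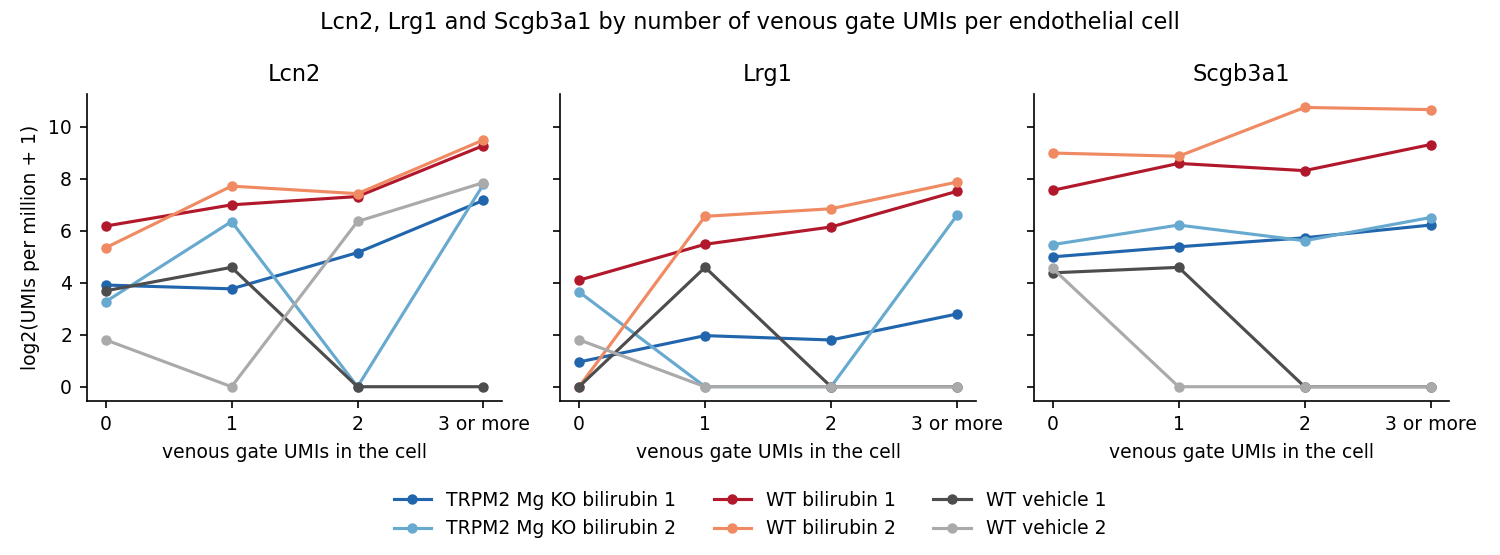
Levels as log2(CPM + 1) in endothelial-like cells with 0, 1, 2 and 3 or more UMIs of the 4 venous genes, 1 line per library. In WT bilirubin replicate 1 Lcn2 lies at 71.4 CPM with 0 and 617 CPM with 3 or more, whereas Scgb3a1 is already at 187 CPM with 0.

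Cells with a UMI of Ackr1, the atypical chemokine receptor of venules, carried the highest Lcn2. Lcn2 stood at 330 and 311 CPM in such cells of TRPM2 Mg KO bilirubin, from 19 and 11 cells, and at 925 and 2379 CPM in WT bilirubin, from 68 and 5 cells. The 3 and 2 such cells of WT vehicle held no Lcn2. Lrg1 behaved similarly in these cells, at 26.4 and 144 CPM in TRPM2 Mg KO bilirubin and 368 and 850 in WT bilirubin. Scgb3a1 did not single them out in WT bilirubin, at 557 and 170 CPM in Ackr1 cells against 626 and 1590 in Slc38a5 cells.

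Outside the gate, Scgb3a1 was seen in capillary and arterial marker cells. In cells with a capillary marker but no arterial or venous one it had 25.4 and 57.6 CPM in TRPM2 Mg KO bilirubin, 269 and 708 in WT bilirubin, and 17.3 and 25.8 in WT vehicle. In cells with an arterial but no venous marker it had 35.3 and 36.4 CPM in TRPM2 Mg KO bilirubin, 163 and 348 in WT bilirubin, and 23.1 and 21.0 in WT vehicle. The WT bilirubin values stood above the others in both zones. Lcn2 in cells with an arterial but no venous marker was 12.5 and 13.6 CPM in TRPM2 Mg KO bilirubin, 64.2 and 58.0 in WT bilirubin, and 7.69 and 4.20 in WT vehicle. Among the arterial markers, Mgp was by far the most abundant in endothelial-like cells. It had 418 and 993 CPM in TRPM2 Mg KO bilirubin, 693 and 718 in WT bilirubin, and 550 and 870 in WT vehicle. No other arterial marker exceeded the 70.2 CPM of Bmx in WT bilirubin replicate 2. Cells with an arterial marker may thus be mostly Mgp cells and need not be arterial. Within the gate, 342 of 563 cells in TRPM2 Mg KO bilirubin, 402 of 619 in WT bilirubin and 56 of 104 in WT vehicle also had an arterial marker. Lcn2 in those cells averaged 90.1 ± 74.6, 461 ± 192 and 20.9 ± 29.5 CPM in the same order of groups (SD, n = 2 each).

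How far the group difference itself differed between the subsets was fitted as an interaction. For WT bilirubin over WT vehicle the difference of log2 fold changes, venous-gate minus other, was -0.0047 (SE 0.98) for Lcn2, 1.19 (SE 2.24) for Lrg1 and 3.35 (SE 1.51) for Scgb3a1. The vehicle cells in the gate held 1 Scgb3a1 UMI in all. Over all genes, this comparison called 1 of 7425 genes (0.0135%), S100a10. For TRPM2 Mg KO bilirubin over WT bilirubin the difference was -0.0089 (SE 0.37) for Lcn2, -1.01 (SE 0.83) for Lrg1 and -0.50 (SE 0.27) for Scgb3a1, and edgeR called 5 genes (0.0673%), Hbb-bt, Hba-a1, Hba-a2, Ptgds and Hbb-bs, which were named after their values were seen. For Lcn2, Lrg1 and Scgb3a1 these values are a description with no test, and they do not show that the group differences were alike in the subsets.

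**Figure D3:**
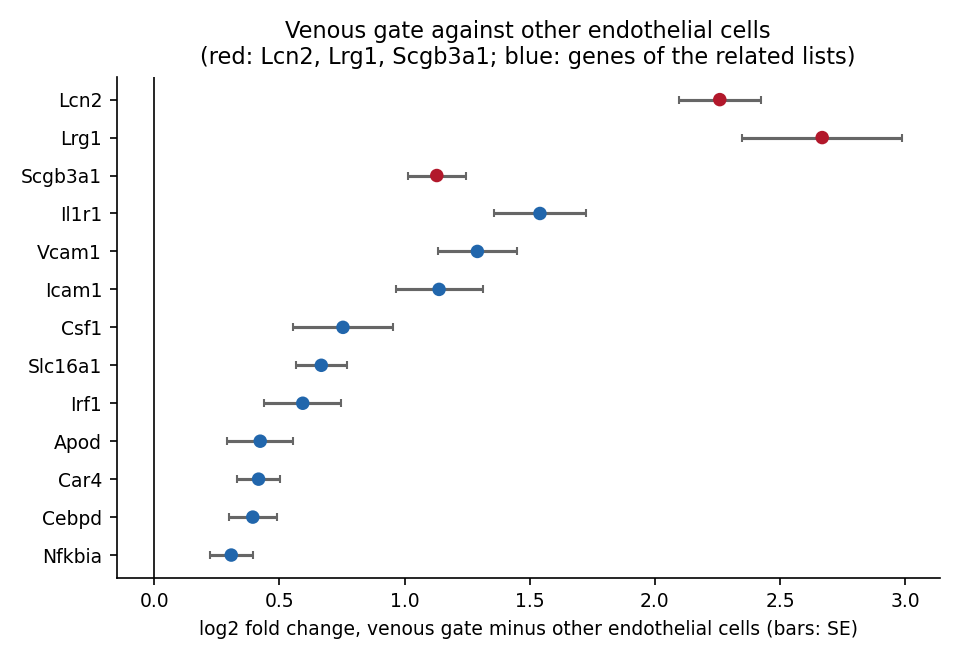
Log2 fold changes of venous-gate over other endothelial-like cells from edgeR with library as a block; points are estimates and bars are ± 1 SE, with Lcn2, Lrg1 and Scgb3a1 in red and the called genes of the related lists in blue. Lcn2 lies at 2.26 and Scgb3a1 at 1.13; Lrg1, at 2.67, comes from the fit without the filter on low counts.

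Endothelial-like cells holding all 3 genes were few and lay in the venous gate. At least 1 of them was seen in 15.4% and 18.8% of endothelial-like cells in TRPM2 Mg KO bilirubin, 44.2% and 43.4% in WT bilirubin, and 4.60% and 4.71% in WT vehicle. All 3 together were seen in 1 and 5 cells of TRPM2 Mg KO bilirubin, 42 and 4 cells of WT bilirubin and 0 and 0 cells of WT vehicle, and every one of those cells was in the venous gate. Within the venous gate of WT bilirubin replicate 1, Lcn2 and Lrg1 met in 60 cells, against 24.8 from the product of their shares. Lcn2 and Scgb3a1 met there in 103 cells against 72.4, and Lrg1 and Scgb3a1 in 56 against 38.2. In WT bilirubin replicate 2 the last 2 pairs met in 7 cells against 6.22 and in 5 against 4.67, and in TRPM2 Mg KO bilirubin replicate 1 Lrg1 and Scgb3a1 met in 1 cell against 0.931, so counts there were close to the product. Deeper cells reach both genes more easily, and the part of depth in these counts was not tested.

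Lcn2 and Lrg1 were also abundant in neutrophil-like cells, whereas Scgb3a1 was not. Neutrophil-like cells, defined by S100a8, S100a9 and other granulocyte markers, numbered 16 and 2 in TRPM2 Mg KO bilirubin, 38 and 63 in WT bilirubin, and 3 and 31 in WT vehicle. They held 286 and 249 Lcn2 UMIs in TRPM2 Mg KO bilirubin, 808 and 1889 in WT bilirubin, and 17 and 282 in WT vehicle. In WT bilirubin replicate 2 the 63 neutrophil-like cells held 72.9% of all Lcn2 UMIs and 47.2% of Lrg1 UMIs. Scgb3a1 had 5 UMIs in the neutrophil-like cells of WT bilirubin replicate 1 and 0 in those of the other libraries. Endothelial-like cells held 71.2% of the Scgb3a1 UMIs in WT bilirubin replicate 2 and 43.7% in replicate 1, where they held 5.05% of all UMIs.

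**Figure D4:**
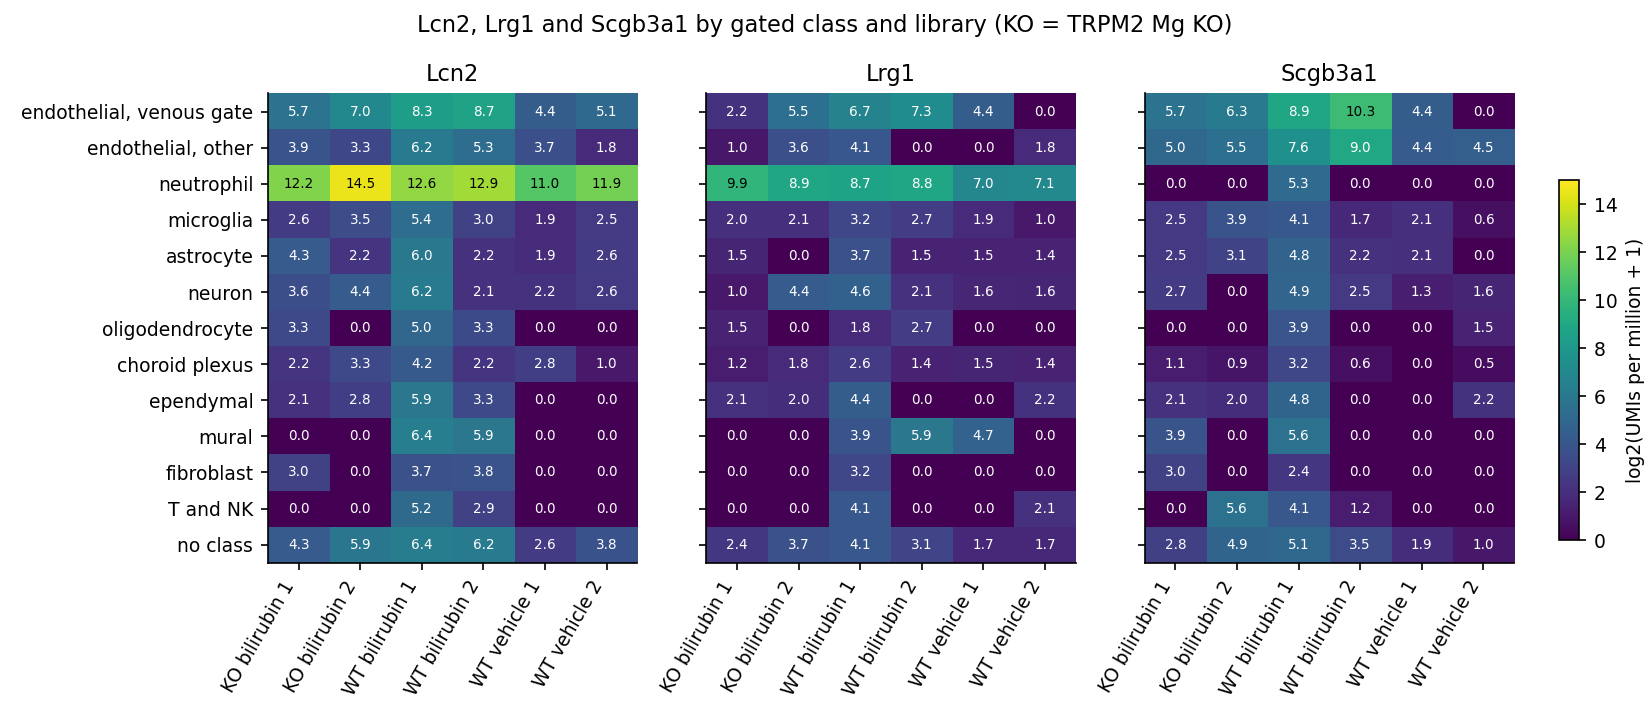
Levels as log2(CPM + 1) of Lcn2, Lrg1 and Scgb3a1 in gated classes (rows) and libraries (columns; KO is TRPM2 Mg KO); classes of few cells are not drawn. Scgb3a1 stands out in the endothelial-like cells of WT bilirubin, at 468 and 1257 CPM in the venous gate against 29.3 and 4.52 CPM in neuron-like cells.

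All 3 genes also had low counts in neuron-like cells, and the source of those counts was not tested. Neuron-like cells had Lcn2 at 11.1 and 19.5 CPM in TRPM2 Mg KO bilirubin, 71.9 and 3.39 in WT bilirubin, and 3.50 and 4.87 in WT vehicle. In WT bilirubin replicate 1, thinned to 1000 UMIs, 7.18% of neuron-like cells and 7.74% of other endothelial-like cells had an Lcn2 UMI, at median depths of 1470 and 1708 UMIs, against 18.1% in the venous gate. In that library the Lcn2 share outside the venous gate was close to that of neuron-like cells. In replicate 2 the thinned shares were 19.2% in the venous gate, 1.01% in other endothelial-like cells and 0.185% in neuron-like cells. In TRPM2 Mg KO bilirubin they were 4.17% and 7.38% in the venous gate, 1.503% and 1.41% in other endothelial-like cells, and 1.24% and 2.23% in neuron-like cells, so Lcn2 outside the gate lay near or below the neuron-like level there.

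Scgb3a1 was above its neuron-like level in both endothelial subsets of WT bilirubin. Neuron-like cells had Scgb3a1 at 5.28 and 0 CPM in TRPM2 Mg KO bilirubin, 29.3 and 4.52 in WT bilirubin, and 1.40 and 1.95 in WT vehicle. The thinned Scgb3a1 shares in other endothelial-like cells were 2.53% and 2.38% in TRPM2 Mg KO bilirubin, 12.01% and 31.9% in WT bilirubin, and 1.79% and 2.30% in WT vehicle, against 0 to 2.86% in neuron-like cells. Lrg1 in other endothelial-like cells had a thinned share of 1.59% in WT bilirubin replicate 1, below the 2.17% of its neuron-like cells. In the venous gate the Lrg1 share was 8.11% and 10.2% in WT bilirubin.

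Neutrophil markers moved with the groups in endothelial-like cells. The 12 neutrophil markers summed to 77.7 and 84.5 CPM in TRPM2 Mg KO bilirubin, with 8 and 7 detected, to 265 and 265 CPM in WT bilirubin, with 11 and 9 detected, and to 39.8 and 76.6 CPM in WT vehicle, with 4 and 7 detected. Cxcr2 was at 0 in 5 of 6 libraries, and so was Ly6g. S100a8 had 12.3 and 14.8 CPM in TRPM2 Mg KO bilirubin, 45.7 and 74.1 in WT bilirubin, and 3.31 and 5.47 in WT vehicle. S100a8 was higher in neuron-like cells in 6 of 6 libraries, at 21.6 and 48.7 CPM in TRPM2 Mg KO bilirubin, 79.9 and 109.5 in WT bilirubin, and 11.9 and 42.5 in WT vehicle. Endothelial-like cells held 2.58 and 4.82 Lcn2 UMIs per S100a8 UMI in TRPM2 Mg KO bilirubin, 4.77 and 3 in WT bilirubin, and 4 and 2 in WT vehicle. Neutrophil-like cells held 0.149 and 0.269, 0.138 and 0.0890, and 0.0605 and 0.151 in the same order of groups, lower than in endothelial-like cells in 6 of 6 libraries. Neuron-like cells held 0.512 and 0.4, 0.9 and 0.0309, and 0.294 and 0.115 in that order. A ratio above that of neutrophil-like cells was thus not particular to endothelial-like cells. The part of neutrophil RNA in the group differences of Lcn2 and Lrg1 was not tested.

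In whole libraries, Lcn2 had 973 and 1497 UMIs (20.7 and 61.9 CPM) in TRPM2 Mg KO bilirubin, 4895 and 2592 (79.4 and 105 CPM) in WT bilirubin, and 136 and 775 (4.95 and 12.2 CPM) in WT vehicle. Lrg1 stood at 4.29 and 11.7 CPM, 16 and 9.46 CPM, and 2.22 and 2.02 CPM in the same order of groups. Scgb3a1 had 7.71 and 26.2 CPM in TRPM2 Mg KO bilirubin, 40.3 and 12.9 CPM in WT bilirubin, and 2.77 and 0.91 CPM in WT vehicle. Lcn2 kept the order of groups, while for Lrg1 and Scgb3a1 the TRPM2 Mg KO bilirubin and WT bilirubin libraries overlapped. In such sums, more cells of a type and more RNA per cell cannot be told apart.

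TRPM2 Mg KO bilirubin replicate 2 stood apart. Barcodes of no class held 1169 of its 1497 Lcn2 UMIs, 247 of 282 Lrg1 UMIs and 571 of 634 Scgb3a1 UMIs. In that library 854 such barcodes carried at least 6 endothelial and at least 4 microglial markers, at a median of 16342 UMIs, and held 1084, 211 and 523 of those UMIs. The endothelial values of this library therefore rest on 271 cells and a small part of its Lcn2, Lrg1 and Scgb3a1 transcripts. When any cell with at least 3 endothelial markers was taken, the log2 fold change of TRPM2 Mg KO bilirubin over WT bilirubin was -1.74 for Lcn2, -1.64 for Lrg1 and -2.99 for Scgb3a1. Without replicate 2 the values were -2.78, -4.94 and -3.84, and without replicate 1 they were -1.42, -1.12 and -3.08, so the direction was the same and the range was widest for Lrg1.

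**Figure D5:**
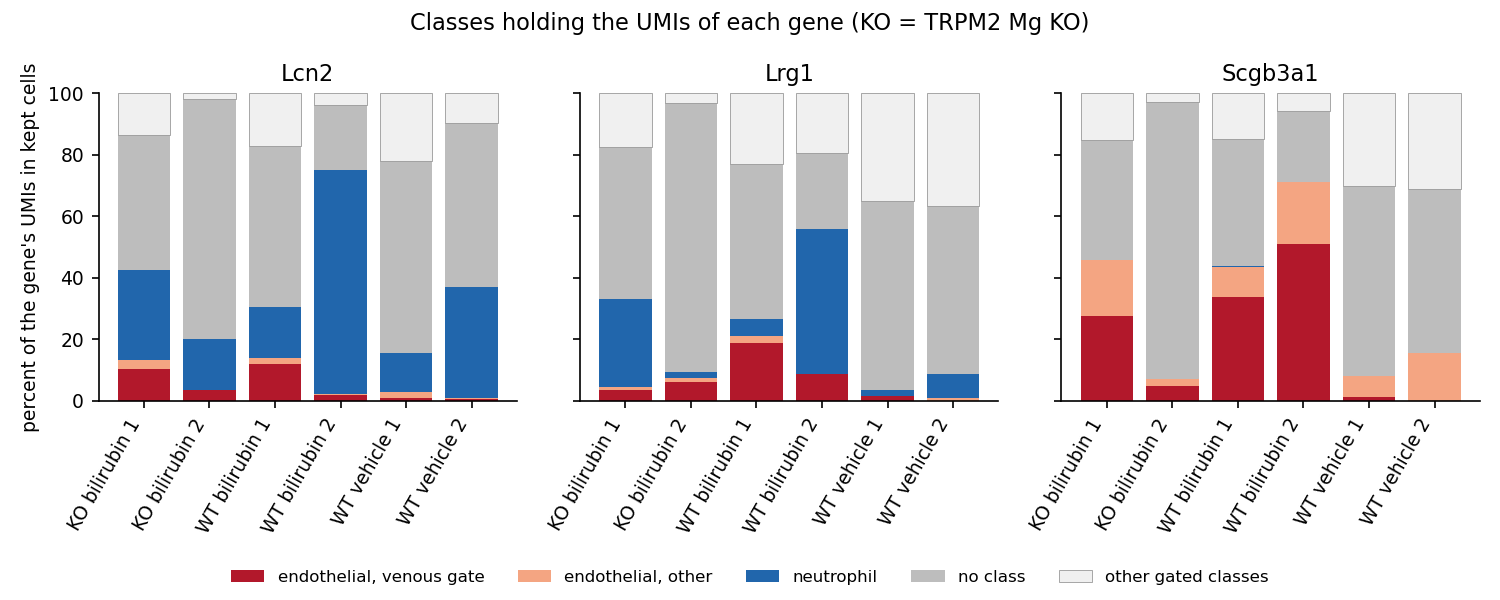
Share in percent of all UMIs of Lcn2, Lrg1 and Scgb3a1 that lay in each source, stacked for every library. Barcodes of no class hold 78.1% of Lcn2 in TRPM2 Mg KO bilirubin replicate 2, and neutrophil-like cells 72.9% in WT bilirubin replicate 2.

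Upstream ligands were scarce in endothelial-like cells. Of 10 cytokine ligands, among them Il1b, Tnf, Il6, Osm and Csf3, 1 passed the filter on low counts, Tnf, and none was called in any comparison; Csf3 had 0 UMIs in all libraries. Tnf had 7.60 and 21.5 CPM in TRPM2 Mg KO bilirubin, 9.07 and 3.903 in WT bilirubin, and 3.31 and 21.9 in WT vehicle, with overlapping groups.

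A list of 15 receptor genes, called receptors here, held cytokine receptors and also Tlr2, Tlr4, Cd14 and the adaptor Myd88. Of these, 9 were tested between groups, and 1 rose in WT bilirubin over WT vehicle with none lower. The median log2 fold change was 0.94, against 0.01 over all genes, of which 0.137% rose. It was 0.92 for the adhesion and chemokine list given below, and the summed endothelial markers were also higher in WT bilirubin than in WT vehicle. The part of that marker difference in the receptor values was not tested. Osmr, the oncostatin M receptor subunit, had 61.3 and 47.0 CPM in TRPM2 Mg KO bilirubin, 70.6 and 121 in WT bilirubin, and 16.6 and 23.7 in WT vehicle. Its log2 fold change for WT bilirubin over WT vehicle was 1.93 (SE 0.45, edgeR adjusted p = 0.0399), with both bilirubin libraries above both vehicle libraries. Leaving out each library in turn gave adjusted p-values from 0.00361 to 0.196, and the call was lost without WT vehicle replicate 1. In all it was lost in 8 of 19 alternative settings, among them DESeq2, the looser endothelial gate, cells with at least 1000 UMIs, each subset on its own and a fit of the 4 libraries compared. Tnfrsf1a, a TNF receptor, had a log2 fold change of 1.82 (SE 0.51, edgeR adjusted p = 0.0702). For TRPM2 Mg KO bilirubin over WT bilirubin none of the 9 receptors passed; Il1r1, the IL-1 receptor, was at -1.13 (SE 0.38) and Tnfrsf1a at -0.87 (SE 0.35), both with edgeR adjusted p = 1.

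Il1r1 shared the venous placement of Lcn2. It had 48.4 and 55.3 CPM in venous-gate cells against 20.1 and 11.5 in other cells of TRPM2 Mg KO bilirubin, 67.8 and 224 against 20.7 and 55.3 in WT bilirubin, and 60.9 and 40.9 against 23.8 and 17.4 in WT vehicle. Its log2 fold change was 1.54 (SE 0.18, edgeR adjusted p = 1.24e-09), higher in 6 of 6 libraries and called in all 17 alternative settings that gave it a value. It was the only 1 of 7 tested receptors called between the subsets, where 1.61% of all 5468 genes were higher in the venous gate.

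Among 16 signal transducers and transcription factors, 15 were tested between groups and 1 fell in TRPM2 Mg KO bilirubin. Cebpb, the C/EBP factor of the acute-phase response, had 12.7 and 10.7 CPM in TRPM2 Mg KO bilirubin, 79.7 and 35.1 in WT bilirubin, and 16.6 and 27.4 in WT vehicle. Its log2 fold change for TRPM2 Mg KO bilirubin over WT bilirubin was -2.40 (SE 0.39, edgeR adjusted p = 0.00993), and the 2 groups did not overlap. The call was lost without TRPM2 Mg KO bilirubin replicate 1 and without WT bilirubin replicate 1, with adjusted p-values up to 0.689 among the fits that left out 1 library. In all it was lost in 7 of 18 alternative settings, also with DESeq2, the looser endothelial gate, cells with at least 1000 UMIs, any cell with at least 3 endothelial markers and venous-gate cells only. Bcl3, an NF-kB cofactor, was at -1.18 (SE 0.51, edgeR adjusted p = 1). For WT bilirubin over WT vehicle none of the 15 passed; Cebpb was at 1.38 (SE 0.46, edgeR adjusted p = 0.137) and Nfkbia, the NF-kB inhibitor, at 1.21 (SE 0.38, adjusted p = 0.135). Between subsets 3 of 11 were higher in the venous gate, Irf1 (0.59), Cebpd (0.39) and Nfkbia (0.31), against 1.61% of all 5468 genes. These calls were lost without TRPM2 Mg KO bilirubin replicate 1 and without WT bilirubin replicate 1. They were also lost with the looser endothelial gate, the gate read after thinning and no library block, in all in 7 of 17 alternative settings for Irf1, 7 of 19 for Cebpd and 9 of 19 for Nfkbia.

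Other acute-phase genes were mostly too scarce to test. Of 24 such genes, 6 were tested between groups and none was called in either direction in any comparison, with a median log2 fold change of 0.21 for WT bilirubin over WT vehicle. Cp, ceruloplasmin, had 73.8 and 52.3 CPM in TRPM2 Mg KO bilirubin, 91.4 and 191 in WT bilirubin, and 63.0 and 52.9 in WT vehicle. Its log2 fold change was 1.03 (SE 0.39, edgeR adjusted p = 0.214) for WT bilirubin over WT vehicle and -0.92 (SE 0.34, adjusted p = 1) for TRPM2 Mg KO bilirubin over WT bilirubin. Lbp, the lipopolysaccharide-binding protein, was at 1.30 (SE 0.54, edgeR adjusted p = 0.233) for WT bilirubin over WT vehicle. Mt1, the most abundant gene of the list, went the other way. It had 1307 and 2112 CPM in TRPM2 Mg KO bilirubin, 1476 and 1382 in WT bilirubin, and 3988 and 2036 in WT vehicle. Ch25h, cholesterol 25-hydroxylase, was at -2.42 (SE 0.64, edgeR adjusted p = 0.635) for TRPM2 Mg KO bilirubin over WT bilirubin. Saa3, a serum amyloid A gene, had at most 1 UMI in each library's endothelial-like cells, and Serpina3n 0 to 15.

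Leukocyte adhesion and chemokine genes of the venous wall were in part shared with the venous placement. Of 10 such genes outside the gate, 4 were tested between subsets and 3 were higher in the venous gate. The share over all 5468 genes was 1.61%. Vcam1, the adhesion receptor for VLA-4, was at 1.29 (SE 0.16, edgeR adjusted p = 3.6e-09), higher in 5 of 6 libraries, and Icam1, the ligand of LFA-1, at 1.14 (SE 0.17, adjusted p = 2.19e-06), higher in 6 of 6. Csf1 was at 0.75 (SE 0.20, edgeR adjusted p = 0.0123). Vcam1 kept its call in all 17 alternative settings that gave it a value. The call was lost in 2 of 17 for Icam1 and in 3 of 14 for Csf1. Both were lost with any cell with at least 3 endothelial markers and with no library block. Between groups none of 8 tested genes of the list passed. Vwf was at 1.46 (SE 0.38, edgeR adjusted p = 0.0759) and Ackr1 at 2.42 (SE 0.89, adjusted p = 0.139) for WT bilirubin over WT vehicle. Ptgs2, cyclooxygenase 2, was at -1.11 (SE 0.47, edgeR adjusted p = 1) and Vwf at -0.76 (SE 0.34, adjusted p = 1) for TRPM2 Mg KO bilirubin over WT bilirubin.

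Few genes of the vessel zones passed the test. Of 10 capillary genes 1 rose in WT bilirubin over WT vehicle, the monocarboxylate transporter Slc16a1. Slc16a1 had 170 and 189 CPM in TRPM2 Mg KO bilirubin, 200 and 340 in WT bilirubin, and 79.6 and 62.0 in WT vehicle. Its log2 fold change was 1.75 (SE 0.38, edgeR adjusted p = 0.0399), and the call was lost when either WT vehicle library was left out. In all it was lost in 7 of 19 alternative settings, also with the looser endothelial gate, any cell with at least 3 endothelial markers, each subset on its own and a fit of the 4 libraries compared. Slc16a1 and Car4 were the 2 of 10 capillary genes higher in the venous gate, against 1.61% of all 5468 genes. They were at 0.67 (SE 0.10) and 0.42 (SE 0.09), calls lost in 4 of 19 and 5 of 19 alternative settings. Tfrc was at 0.84 (SE 0.37, edgeR adjusted p = 0.311) for WT bilirubin over WT vehicle, and Slc2a1 at -0.98 (SE 0.38) and Hmcn1 at 0.70 (SE 0.37) for TRPM2 Mg KO bilirubin over WT bilirubin, both with adjusted p = 1. None of 3 tested arterial genes was called; Efnb2 was at 0.83 (SE 0.65) and Hey1 at 0.54 (SE 0.58) for WT bilirubin over WT vehicle.

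Of 13 partner genes, which include TGF-beta receptors that LRG1 acts on and the lipocalin 2 receptor Slc22a17, 10 were tested between groups and none was called. Acvrl1, the endothelial TGF-beta type I receptor ALK1, was at 1.10 (SE 0.36, edgeR adjusted p = 0.146) and Smad1 at 1.03 (SE 0.43, adjusted p = 0.256) for WT bilirubin over WT vehicle. For TRPM2 Mg KO bilirubin over WT bilirubin, Tgfbr1 was at 0.44 (SE 0.32) and Smad1 at -0.36 (SE 0.33), both with edgeR adjusted p = 1. Of 9 lipocalin and secretoglobin relatives 2 were tested, and neither was called between groups. Ptgds was at -0.43 (SE 0.50) and Apod at -0.27 (SE 0.36) for WT bilirubin over WT vehicle, and at 0.68 (SE 0.50) and 0.48 (SE 0.33) for TRPM2 Mg KO bilirubin over WT bilirubin. Apod was higher in the venous gate at 0.42 (SE 0.13, edgeR adjusted p = 0.047), a call kept in 5 of 18 alternative settings.

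The genes most like each of the 3 were ranked by Pearson's r of log2(CPM + 1) over the 12 venous-gate and other sums, among 6483 genes with a mean of at least 20 CPM. These sums share libraries and depth, so r is a description. Lcn2 was followed by Tnfsf13 (0.887), Tmem238 (0.886), Srarp (0.863), Tmem252 (0.846) and Gsta4 (0.840). Lrg1 was followed by Gga1 (0.828), Agtrap (0.818), Ifitm2 (0.814), Fam122a (0.813) and Lbp (0.811). Scgb3a1 was followed by Plec (0.957), Cdc26 (0.947), Slc30a1 (0.919), H2-D1 (0.916) and Cpne8 (0.912). Among the 3 genes themselves r was 0.683 for Lcn2 and Lrg1, 0.609 for Lcn2 and Scgb3a1, and 0.594 for Lrg1 and Scgb3a1. The neighbours were picked as the highest of 6483 genes, so their r is no yardstick for these pairs.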

How the data were processed

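The values are deposited counts of UMIs per gene and barcode, 1 matrix per library with tables of barcodes and genes, which hold other content and no measurement. Per the file headers the matrices came from Cell Ranger 9.0.1; Cell Ranger 8.0.0, Scanpy 1.9.6, GRCm39 and mm10 stand without a role in the submitters' processing notes. Kept cells had at least 500 UMIs, 300 genes and at most 15% mitochondrial UMIs; doublets stayed in and were removed by Scrublet (scanpy 1.11.5) as an alternative. A cell's class needed at least 3 markers and 1.5 times the marker share of the next class, and the names are rebuilt here. CPM are UMIs scaled to the same total of UMIs per class; thinned shares are the chance of a UMI at 1000 UMIs.

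UMI sums went into two-sided quasi-likelihood tests (edgeR 4.0.16, R 4.3.3) with TMM, filterByExpr and Benjamini-Hochberg adjustment over all genes (threshold 0.05): venous-gate against other cells with library as a block, their interaction with group, and groups in 1 fit of 6 libraries. DESeq2 1.42.0 was an alternative. Scripts were tested on simulated data. Genes named were the 3 genes, the 5 most like each, zone genes, and of each list the 2 with the smallest p in WT bilirubin over WT vehicle and in TRPM2 Mg KO bilirubin over WT bilirubin. Called list genes, genes with values near 0 and Mt1 were added after their values were seen. The 3 genes and the lists were chosen with earlier results of these data known.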

Additional observations from a re-analysis of the deposited data

Results flagged for a closer look

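Barcodes that met no class lie outside the comparisons of endothelial-like cells, and in all 4 bilirubin libraries their levels of Lcn2, Lrg1 and Scgb3a1 lay above those of both vehicle libraries. Lcn2 in these barcodes had 18.7 and 57.5 CPM in TRPM2 Mg KO bilirubin and 81.6 and 73.9 CPM in WT bilirubin, against 5.17 and 12.6 CPM in WT vehicle. Lrg1 had 4.37 and 12.1 CPM in TRPM2 Mg KO bilirubin and 15.97 and 7.80 CPM in WT bilirubin, against 2.25 and 2.14 CPM in WT vehicle. Scgb3a1 had 6.21 and 28.1 CPM in TRPM2 Mg KO bilirubin and 32.8 and 9.95 CPM in WT bilirubin, against 2.86 and 0.95 CPM in WT vehicle. The part of endothelial RNA and of neutrophil RNA in these barcodes was not tested.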

How the results depend on the processing

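Depth limits these results: vehicle libraries held 4 and 6 Lcn2 UMIs in endothelial-like cells and 1 and 1 Lrg1 UMIs, so folds over vehicle are uncertain and small interactions were not detectable. Lcn2 stayed higher in the venous gate in every alternative that gave a value, with log2 fold changes of 0.83 to 2.55; the stricter endothelial gate removed Lcn2, Lrg1 and Scgb3a1. The any-marker setting (any cell with at least 3 endothelial markers) and leaving out libraries for the venous share were chosen after seeing the data.

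Genes called between venous-gate and other cells, 222 in the report, numbered 141 with no filter on low counts, 35 with DESeq2, 97 with the stricter gate, 122 without Scrublet doublets, 143 with Slc38a5 or Nr2f2 as the gate, 49 with the gate read after thinning, 1422 with the any-marker setting, 4 with no library block and 34 to 263 when 1 library was left out. Scgb3a1 there was 0.81 with DESeq2 and 0.96 with no library block. The log2 fold changes without 1 library ran from 2.17 to 2.45 for Lcn2 and from 0.94 to 1.19 for Scgb3a1.

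The interaction with WT bilirubin over WT vehicle, 1 call in the report, had 2 with median-of-ratios size factors, 0 with DESeq2, 4 without Scrublet doublets, 0 with at least 1000 UMIs per cell, 4 with at least 2 gate UMIs, 4 with the thinned gate, 5 with the any-marker setting and 0 to 15 without 1 library. The interaction with TRPM2 Mg KO bilirubin over WT bilirubin, 5 calls, had 0 with DESeq2, 13 with the looser endothelial gate, 8 without Scrublet doublets, 3 with at least 1000 UMIs, 3 with the Slc38a5 or Nr2f2 gate, 3 with at least 2 gate UMIs, 8 with the thinned gate, 14 with the any-marker setting and 2 to 5 without 1 library. The Lcn2 interaction for WT bilirubin over WT vehicle turned positive with no filter on low counts (0.13), DESeq2 (0.23), the stricter gate (2.55), the looser gate (1.35), no cell filter (0.023), no Scrublet doublets (0.39) and at least 1000 UMIs (0.22), and ran from -1.42 to 1.86 without 1 library. That of Lrg1 was -0.56 with the Slc38a5 or Nr2f2 gate. For TRPM2 Mg KO bilirubin over WT bilirubin the Lcn2 interaction was 0.016 with DESeq2, 0.44 with the Slc38a5 or Nr2f2 gate, 0.33 with at least 2 gate UMIs and 1.02 with the any-marker setting, and ran from -1.04 to 1.52 without 1 library; that of Lrg1 was 0.16 with the Slc38a5 or Nr2f2 gate. The cause of these changes was not tested.

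Genes called for WT bilirubin over WT vehicle, 44 in the report, numbered 99 with no filter on low counts, 26 with DESeq2, 139 with the stricter gate, 2 with the looser gate, 290 without Scrublet doublets, 17 with at least 1000 UMIs, 2 with the any-marker setting, 5 in venous-gate cells only, 76 in other cells only, 10 with the 4 libraries compared and 19 to 252 without 1 library. For TRPM2 Mg KO bilirubin over WT bilirubin, 4 calls, the counts were 17, 1 and 1 with no filter, DESeq2 and the looser gate, 2 with at least 1000 UMIs, 0 with the any-marker setting, 1 in venous-gate cells only and 4 to 33 without 1 library. For TRPM2 Mg KO bilirubin over WT vehicle, 0 calls, they were 13 with no filter, 1 with DESeq2, 17 with the stricter gate, 10 in other cells only, 116 with the 4 libraries compared and 1 to 186 without 1 library. Lrg1 in that comparison was -0.49 with the stricter gate and, without 1 library, ran from -0.22 (TRPM2 Mg KO bilirubin replicate 2) to 3.57 (replicate 1). A replicate block gave 174, 10 and 24 calls in these 3 comparisons; the labels do not say that replicate numbers pair libraries, and deviations of same-numbered libraries correlated at -0.139 (TRPM2 Mg KO bilirubin and WT bilirubin), 0.0277 (TRPM2 Mg KO bilirubin and WT vehicle) and -0.0932 (WT bilirubin and WT vehicle) over 6731 genes.

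The venous share of endothelial-like cells for TRPM2 Mg KO bilirubin minus WT bilirubin was 2.35 percentage points with the looser gate. Shares of endothelial-like cells with a UMI depend on thinning. Thinned to 500 UMIs, Lcn2 was in 1.504% of cells in TRPM2 Mg KO bilirubin, 6.62% in WT bilirubin and 0.577% in WT vehicle, and not thinned in 7.02% and 15.8% of the bilirubin groups' cells. Lrg1 at 500 UMIs was in 2.78% in WT bilirubin and 0.0714% in WT vehicle, and not thinned in 2.72% in TRPM2 Mg KO bilirubin, 7.77% in WT bilirubin and 0.378% in WT vehicle. Scgb3a1 at 500 UMIs was in 2.15% in TRPM2 Mg KO bilirubin, 14.3% in WT bilirubin and 0.957% in WT vehicle, and not thinned in 11.2% in TRPM2 Mg KO bilirubin and 2.77% in WT vehicle.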
